A study of Rattus norvegicus with 13 samples.

Results

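The constitutive proteasome subunits were followed in heart tissue, the left ventricle, of rats overexpressing ADBR3 and of wild-type (WT) rats. Members were chosen by name: every non-control probe of the array whose gene name begins with Psma, Psmb, Psmc or Psmd and a digit, apart from the inducible subunits Psmb8, Psmb9 and Psmb10. This gave 42 probes with 38 gene names, of 30367 probes on the array. The core particle had 20 of these probes and the regulatory particle 17. Another 4 probes read the assembly chaperones Psmd5, Psmd9 and Psmd10, and 1 reads Psmc3ip, a meiotic recombination factor that matches the naming rule but is no subunit. The choice used names and no measured value. Of the 42 probes, 38 were bright enough to be tested, among 17587 on the whole array.

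The proteasome is the large protease that degrades ubiquitin-tagged proteins. Its core particle is a barrel of alpha rings (Psma genes), which gate the entrance, and beta rings (Psmb genes), which hold the catalytic sites. The regulatory particle caps the barrel: ATPases (Psmc genes) unfold the substrate, and non-ATPase subunits (Psmd genes) capture it and remove its ubiquitin. In heart muscle this machine turns over contractile and regulatory proteins, and the catalytic subunits can be exchanged for inducible ones made under interferon.

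Both groups were male rats aged 45 weeks. The ADBR3 overexpressing group had 5 rats on 7 arrays, and the WT group had 4 rats on 6 arrays. The series title spells the gene ADRB3, the beta-3 adrenergic receptor, whereas the sample labels spell it ADBR3. The labels name neither the construct nor the cells in which the receptor was overexpressed. Hearts 1 and 2 of each group are 2 labelings of RNA from a single animal and were averaged. ADBR3 heart 4 and WT heart 5 repeat the hybridization of an array that the labels do not name, so they were left out of the comparison and are given as values. Rats carry the number of their heart, which leaves ADBR3 rats 1, 3, 5, 6 and 7 and WT rats 1, 3, 4 and 6.

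Levels below are the log2 processed spot signal with the 75th percentile of its array subtracted, so a difference of 1 would be a doubling, and levels of different probes are not comparable. The 75th percentile lay between 760.4 and 908.7 on the 13 arrays, 55.2% to 67.8% of spots were well above background, and 0 spots were saturated. All 11 cardiomyocyte marker probes were well above background on every array. The array's rat Adrb3 probe was well above background on 1 of 7 ADBR3 arrays, heart 6 at -4.10, and on 0 of 6 WT arrays. Its level ran from -7.15 to -4.10 on ADBR3 arrays and from -7.03 to -5.96 on WT arrays. Since the introduced sequence is not stated, this probe does not check the labels. Each sample is ventricle tissue, so fewer cells of a type and less RNA per cell cannot be told apart.

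The probes that the comparison of catalytic subunits turns on are shown with the probes of the inducible partners Psmb9 and Psmb8, followed by those of core and lid subunits in which single rats stood apart or that were among the members with the smallest p. Each is a 60-base sequence of the array design, 5′ to 3′, with its position on rat build rn4 as deposited. No base is capitalised because no single stretch was tested. The exon annotation of that build was not used here. The Psmb7 and Psma2 intervals span 19875 and 1352 bases, which is longer than the probe itself.
Psmb6: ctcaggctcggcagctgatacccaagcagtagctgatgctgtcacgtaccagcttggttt
Psmb7: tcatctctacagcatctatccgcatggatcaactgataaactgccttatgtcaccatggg
Psmb5: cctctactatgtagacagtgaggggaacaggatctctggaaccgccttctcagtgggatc
Psmb9: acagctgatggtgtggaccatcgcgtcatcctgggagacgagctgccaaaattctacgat
Psmb8: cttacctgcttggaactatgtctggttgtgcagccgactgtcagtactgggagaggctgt
Psma4: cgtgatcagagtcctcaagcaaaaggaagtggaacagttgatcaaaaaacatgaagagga
Psma2: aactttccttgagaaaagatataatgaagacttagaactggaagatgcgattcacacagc
Psmd12: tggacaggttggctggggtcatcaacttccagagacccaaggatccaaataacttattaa
The Psmb6 probe lies at chr10:57371368-57371427 on the plus strand. The Psmb7 probe lies at chr3:18413231-18433105 and the Psmb5 probe at chr15:32690134-32690193, both on the minus strand. Psmb9 and Psmb8 lie near each other on chromosome 20, at chr20:4806341-4806400 on the plus strand and chr20:4787980-4788039 on the minus strand. The Psma4 probe lies at chr8:58515747-58515806 on the plus strand, the Psma2 probe at chr17:58736661-58738012 on the minus strand and the Psmd12 probe at chr10:96907046-96907105 on the plus strand.

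The constitutive proteasome showed no called change with ADBR3 overexpression. With limma and Benjamini-Hochberg adjustment over all 17587 probes, 0 of 38 member probes passed an adjusted p of 0.05, where 0.00569% of all probes tested did. Without adjustment, 0 of 38 had a limma p under 0.05, against 9.2% of all probes tested. The smallest member p was 0.0536, for the lid subunit Psmd11 (adjusted p = 0.545). In 0 of 38 probes were the ADBR3 and WT rats fully apart, against 1.23% of all probes apart in the higher direction and 2.21% in the lower one. By sign alone, 16 member probes were higher and 22 lower, which is 57.9% lower against 53.5% of all probes tested. The median log2 difference of the members was -0.014, and that of all probes tested was -0.0094.

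The sizes that the data leave possible were small for most subunits. The 95% interval of the difference lay inside a 1.25-fold change in either direction for 31 of 38 member probes, or 81.6%, against 55.8% of all probes tested. It lay inside a 1.5-fold change for 38 of 38, against 84%. These shares are not matched for brightness, and the spread between rats falls with brightness on these arrays. A mean level of at least 0 was found for 32 of the 38 members, against 6565 of the 17587 probes tested. The 7 probes outside the narrower limit read Psma2, Psma4, Psmb11, Psmc6, Psmd7, Psmd11 and, with 1 of its 2 probes, Psmd9. The plot of differences by role shows the members' intervals crossing 0 in every role.

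**Figure D1:**
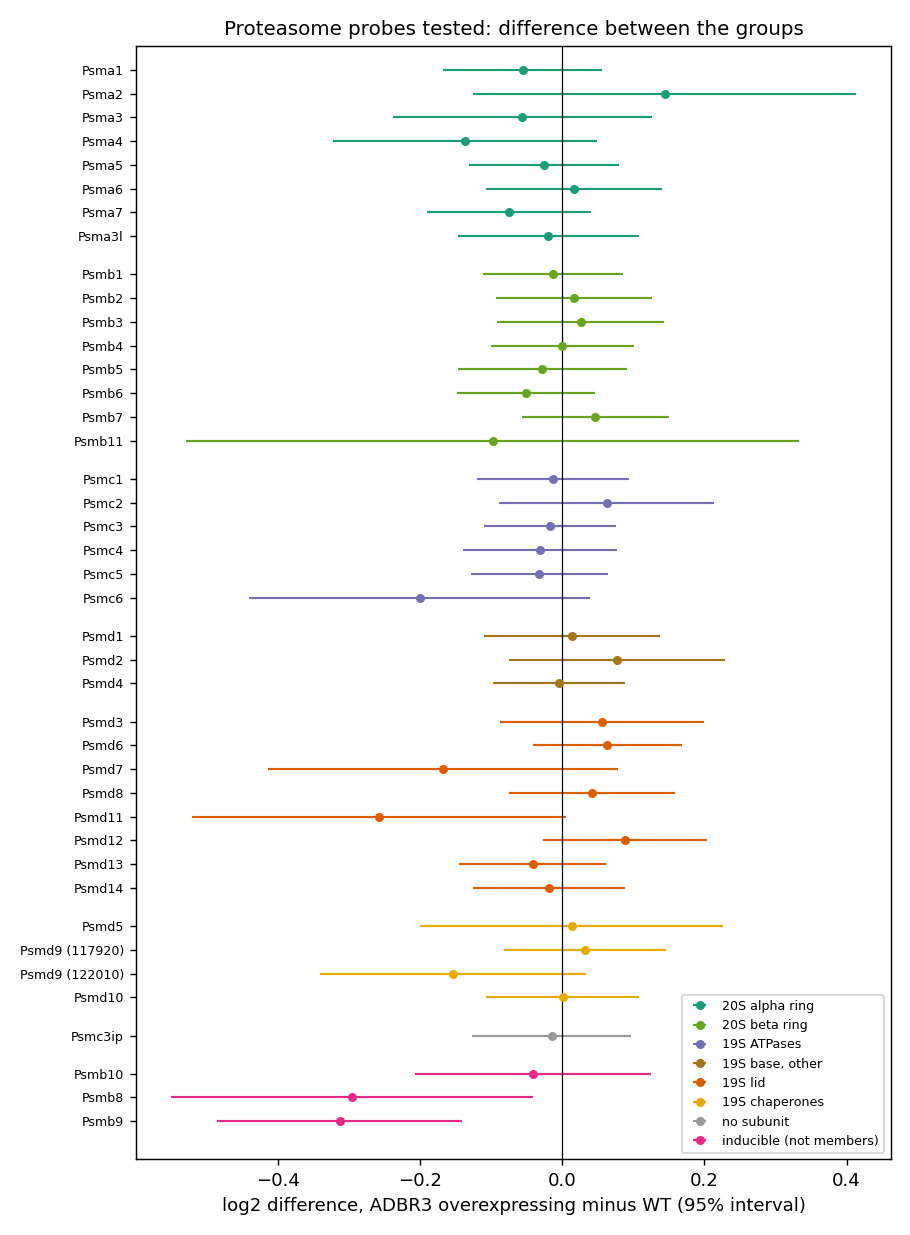
Log2 difference, ADBR3 overexpressing minus WT, for each of the 38 member probes tested and for the 3 inducible subunits, by role, with points for the limma estimate and bars for its 95% interval (5 ADBR3 and 4 WT rats). All 38 member intervals include 0, with estimates from -0.26 for Psmd11 to 0.14 for Psma2, while the intervals of Psmb8 and Psmb9 lie below 0.

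In the core particle, 6 of 16 tested probes were higher and 10 lower, with a median difference of -0.023. The alpha ring had 2 probes higher and 6 lower, and the beta ring 4 higher and 4 lower, with medians of -0.041 and -0.0066. The interval lay inside a 1.25-fold change for 13 of the 16 probes. Among the alpha and beta subunits not described singly below, differences ran from -0.075 for Psma7 to 0.026 for Psmb3.

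None of the 3 constitutive catalytic subunits passed the test. Psmb6 carries the caspase-like activity, and its level was 2.41, 2.46, 2.45, 2.46 and 2.46 in ADBR3 rats 1, 3, 5, 6 and 7, against 2.53, 2.48, 2.44 and 2.55 in WT rats 1, 3, 4 and 6. WT rat 4 lay among the ADBR3 rats and the other WT rats lay above them. The Psmb6 difference was -0.051 ± 0.043 (SE; limma adjusted p = 0.725; exact two-sided permutation p = 0.0635, where the smallest p that 5 against 4 rats allows is 0.00794). Psmb7 carries the trypsin-like activity, and it measured 2.58, 2.65, 2.60, 2.65 and 2.59 in ADBR3 rats, against 2.64, 2.57, 2.51 and 2.57 in WT rats. The groups overlapped, and the Psmb7 difference was 0.047 ± 0.046 (SE; limma adjusted p = 0.763). Psmb5 carries the chymotrypsin-like activity, and it measured 4.25, 4.36, 4.25, 4.21 and 4.33 in ADBR3 rats, against 4.36, 4.34, 4.21 and 4.31 in WT rats. Rats of both groups were at its upper and lower end, and the difference was -0.029 ± 0.053 (SE; limma adjusted p = 0.884). The 95% intervals were -0.15 to 0.046 for Psmb6, -0.057 to 0.15 for Psmb7 and -0.15 to 0.090 for Psmb5.

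In the alpha ring, Psma4 had the smallest p of the lower core probes and Psma2 of the higher ones. Psma4, a structural ring subunit, measured 2.82, 2.86, 2.78, 2.55 and 2.86 in ADBR3 rats 1, 3, 5, 6 and 7, against 2.80, 3.07, 2.92 and 2.85 in WT rats 1, 3, 4 and 6. ADBR3 rat 6 stood below all other rats, and WT rat 3 stood above them. The difference of -0.14 ± 0.082 (SE; limma adjusted p = 0.613) became -0.082 without ADBR3 rat 6 and -0.084 without WT rat 3.

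Psma2, another ring subunit, had low and high rats in both groups. It measured 1.56, 1.94, 2.06, 1.98 and 1.98 in ADBR3 rats, against 1.68, 2.02, 1.58 and 1.77 in WT rats. ADBR3 rat 1 and WT rats 1 and 4 were low, WT rat 3 was as high as the remaining ADBR3 rats, and WT rat 6 lay between. The repeat labelings gave like values: 1.57 and 1.55 for ADBR3 rat 1, and 1.68 and 1.69 for WT rat 1. The repeat hybridizations ADBR3 heart 4 and WT heart 5 read 2.07 and 1.62. Their nearest arrays of the same group over all probes, ADBR3 heart 3 and WT heart 4, read 1.94 and 1.58. The difference was 0.14 ± 0.12 (SE; limma adjusted p = 0.718). It was 0.23 without ADBR3 rat 1 (limma adjusted p = 0.487), 0.23 without WT rat 3 and 0.084 without WT rat 4.

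**Figure D2:**
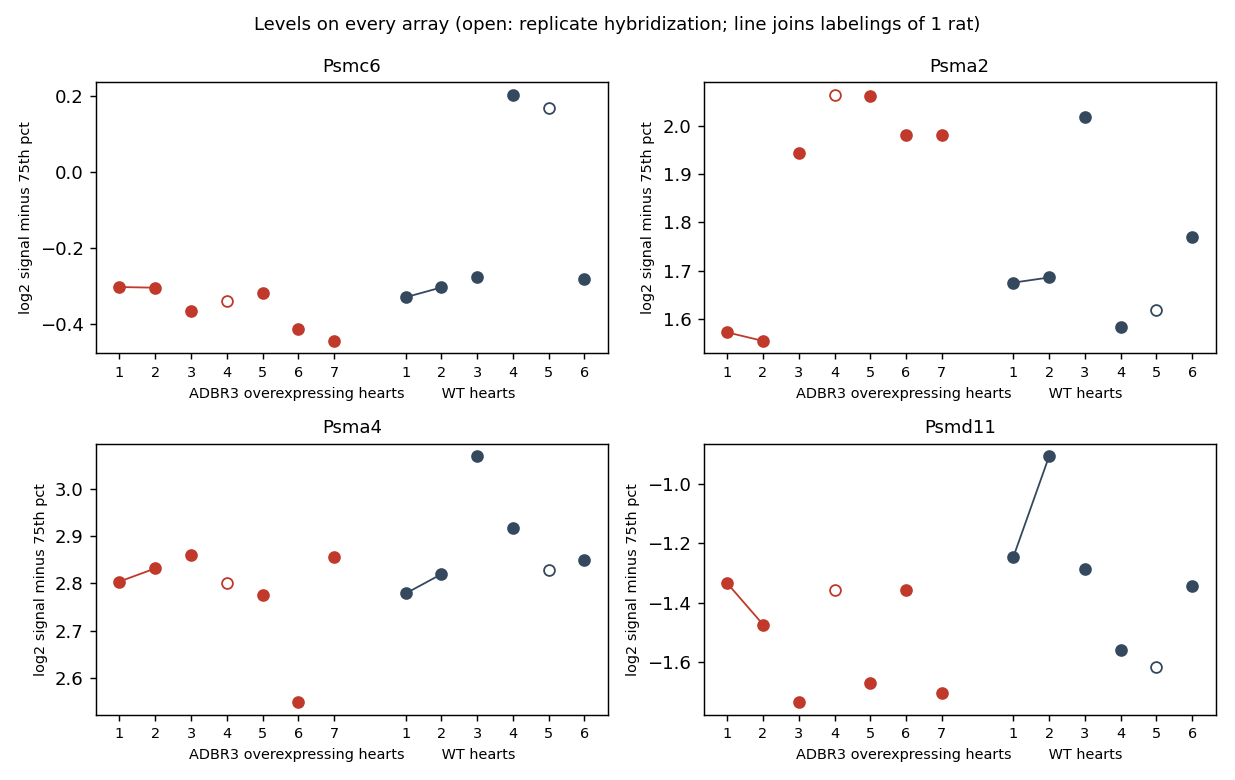
Level (log2 signal less the 75th percentile) of Psmc6, Psma2, Psma4 and Psmd11 on each of the 13 arrays, with ADBR3 overexpressing hearts 1 to 7 on the left and WT hearts 1 to 6 on the right of each panel. Lines join the 2 labelings of 1 rat and open circles are the repeat hybridizations. WT hearts 4 and 5 stand apart for Psmc6 at 0.20 and 0.17, and ADBR3 heart 6 stands apart for Psma4 at 2.55.

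Core subunits of other tissues were near or below the detection limit. The 3 probes of Psma8, an alpha subunit of the testis, were well above background on 0 of 7 ADBR3 and 0 of 6 WT arrays. For Psmb11, the catalytic subunit of the thymus, probe A_64_P022327 was well above background on 1 ADBR3 array and 0 WT arrays and was not tested. Probe A_64_P022322 was above it on 6 ADBR3 and 4 WT arrays, with a level of -5.30 to -4.34 in ADBR3 rats and -4.73 to -4.33 in WT rats. Its difference was -0.098 with a 95% interval of -0.53 to 0.33 (limma adjusted p = 0.892), and the groups overlapped.

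In the regulatory particle, 7 of 17 tested probes were higher and 10 lower, with a median difference of -0.013. Of the 6 ATPases, which form the ring that threads substrates into the core, 5 were lower and 1 higher. Of the 8 lid subunits, which surround the deubiquitinase, 4 were higher and 4 lower. The interval lay inside a 1.25-fold change for 14 of 17 probes.

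Among the ATPases, Psmc6 had the smallest p, and the size of its difference, though not its sign, depended largely on 1 rat. Psmc6 measured -0.30, -0.37, -0.32, -0.41 and -0.44 in ADBR3 rats 1, 3, 5, 6 and 7, against -0.32, -0.28, 0.20 and -0.28 in WT rats 1, 3, 4 and 6. WT rat 4 stood above all other rats, WT rats 3 and 6 lay just above the ADBR3 range and WT rat 1 lay within it. The repeat hybridization WT heart 5, whose nearest WT array over all probes was heart 4, also read 0.17. The difference was -0.20 ± 0.11 (SE; limma adjusted p = 0.584; exact two-sided permutation p = 0.0159), and without WT rat 4 it was -0.078 (limma adjusted p = 0.638). On slide 1, which holds neither of those arrays, it was -0.0036. The other ATPases ran from -0.032 for Psmc5 to 0.062 for Psmc2.

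Psmd11, a lid scaffold subunit, had the smallest p of all members. Its level was -1.40, -1.74, -1.67, -1.36 and -1.70 in ADBR3 rats, against -1.08, -1.29, -1.56 and -1.34 in WT rats. WT rat 4 lay within the ADBR3 range, and WT rats 1, 3 and 6 lay above the highest ADBR3 rat. The difference was -0.26 ± 0.12 (SE; 95% interval -0.52 to 0.0049; limma adjusted p = 0.545; exact two-sided permutation p = 0.0714). The 2 labelings of ADBR3 rat 1 read -1.33 and -1.47, and those of WT rat 1 lay farther apart, at -1.25 and -0.91. The repeat hybridization ADBR3 heart 4 read -1.36, against -1.74 on heart 3, its nearest ADBR3 array over all probes. The repeat hybridization WT heart 5 read -1.62, against -1.56 on heart 4, its nearest WT array. Within slides that hold both groups the difference was -0.13 and -0.15 on slides 1 and 3 and 0.15 on slide 4. The slide 4 value includes the repeat hybridization ADBR3 heart 4 and has the repeat hybridization WT heart 5 as its sole WT array. With slide as a block, on 1 array a rat and without the repeat hybridizations, the difference was -0.085. There only slides 1 and 3 hold both groups. The estimate thus rests on ADBR3 rats 1 and 7 and WT rats 1, 4 and 6.

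Of the regulatory probes with a higher level, Psmd12, Psmd6 and Psmd2 had the smallest p, and none passed the test. Psmd12, a lid subunit read by 10 spots on each array, measured 3.58, 3.58, 3.70, 3.59 and 3.70 in ADBR3 rats, against 3.54, 3.50, 3.62 and 3.52 in WT rats. The ADBR3 rats lay above WT rats 1, 3 and 6, and WT rat 4 lay among them. The Psmd12 difference was 0.088 ± 0.051 (SE; limma adjusted p = 0.609), and the SD over its spots within an array was 0.035 to 0.055. Psmd6, another lid subunit, was 0.063 higher (limma adjusted p = 0.679), at 3.25 to 3.39 in ADBR3 rats and 3.23 to 3.28 in WT rats. Psmd2, a base scaffold that docks ubiquitin shuttle proteins, was 0.077 higher (limma adjusted p = 0.736), at 4.15 to 4.43 in ADBR3 rats and 4.12 to 4.28 in WT rats. The groups overlapped for all 3.

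The subunits that read and remove ubiquitin did not pass the test either. Psmd14, the deubiquitinase of the lid, measured 0.063 to 0.19 in ADBR3 rats and 0.10 to 0.17 in WT rats, a difference of -0.019 with a 95% interval of -0.13 to 0.088. Psmd4, a ubiquitin receptor, measured 3.10 to 3.17 in ADBR3 rats and 3.09 to 3.16 in WT rats, a difference of -0.0047 with an interval of -0.098 to 0.088. Both groups overlapped for each gene.

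Of the assembly chaperones that guide the regulatory particle together, 3 probes were higher and 1 lower. The 2 probes of Psmd9 differed in sign. Probe A_64_P122010 measured 0.87, 0.79, 0.66, 0.64 and 0.49 in ADBR3 rats, against 0.95, 0.86, 0.75 and 0.81 in WT rats, a difference of -0.15 ± 0.083 (SE; limma adjusted p = 0.593). Probe A_64_P117920 measured 1.35 to 1.47 in ADBR3 rats and 1.32 to 1.47 in WT rats, a difference of 0.032 (limma adjusted p = 0.858). The groups overlapped at both probes. Psmd5 differed by 0.013 and Psmd10, the oncoprotein gankyrin, by 0.00044, with 95% intervals of -0.20 to 0.23 and -0.11 to 0.11. Psmc3ip, the gene that is no subunit, differed by -0.015 (limma adjusted p = 0.945).

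As particles, the subunits varied by a few hundredths of a log2 unit from rat to rat. The mean deviation of the core probes from their own means was -0.047, -0.016, 0.012, -0.045 and 0.053 in ADBR3 rats 1, 3, 5, 6 and 7, against 0.017, 0.034, -0.027 and 0.019 in WT rats 1, 3, 4 and 6. By this mean the highest and the lowest rat were both ADBR3 rats. The mean includes the dim Psmb11 probe A_64_P022322, which was lowest in ADBR3 rat 3 at -5.30. By the median deviation WT rat 3 was highest, at 0.042, and ADBR3 rat 6 lowest, at -0.076. The median of ADBR3 rat 3 was 0.033. Of the 16 core probes, 12 were above their own mean in ADBR3 rat 7, 2 in ADBR3 rat 1 and 3 in WT rat 4. For the regulatory particle the mean deviation was -0.0062, -0.026, 0.012, -0.041 and 0.010 in ADBR3 rats, against 0.017, -0.015, 0.022 and 0.027 in WT rats. The groups overlapped for both particles. The group means were -0.0087 ± 0.042 (SD, n = 5) in ADBR3 and 0.011 ± 0.026 (SD, n = 4) in WT rats for the core, and -0.010 ± 0.023 and 0.013 ± 0.019 for the regulatory particle.

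**Figure D3:**
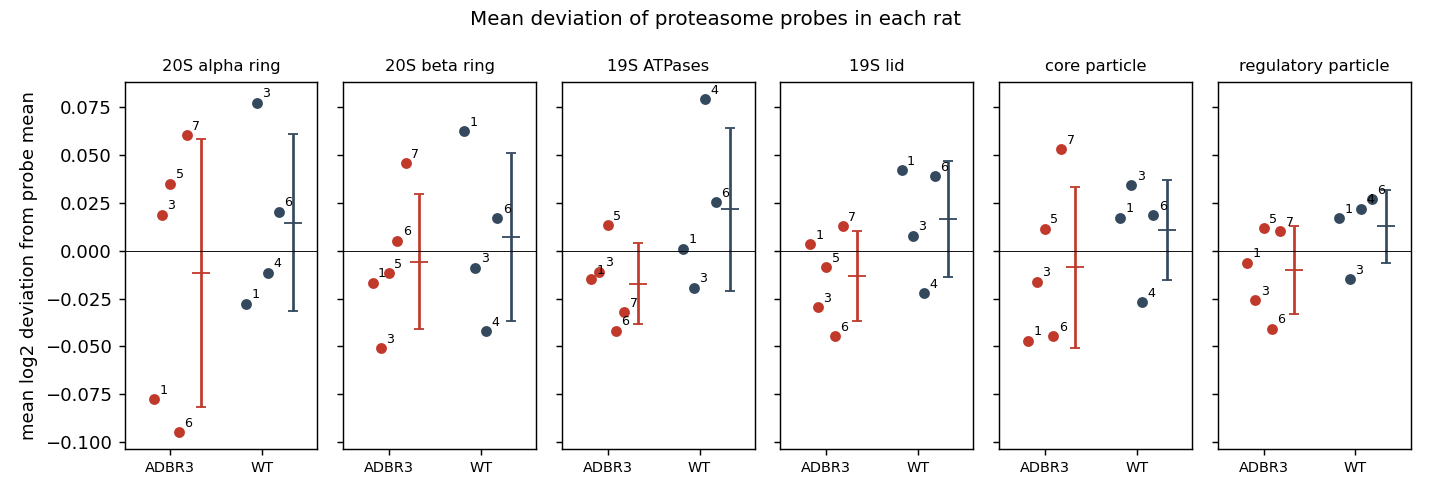
Mean log2 deviation of the tested probes of each proteasome list from their own means over 9 rats, with 1 numbered point per rat, ADBR3 overexpressing left and WT right, and a bar for the group mean ± SD. The groups overlap in every panel, and ADBR3 rats 1 and 6 are lowest and WT rat 3 and ADBR3 rat 7 highest for the alpha ring.

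Within slides and scan days the median of all members kept no common direction. The median member difference was -0.058 on slide 1, 0.042 on slide 3 and -0.0061 on slide 4, and 0.0083 on scan day 1 and -0.021 on scan day 2. The core median was -0.066, 0.061 and -0.011 on slides 1, 3 and 4, and 0.026 and -0.029 on scan days 1 and 2. In the same order the regulatory median was -0.0036, 0.030 and -0.00051, and -0.0022 and -0.012. It was thus above 0 on slide 3 only. Over the same batches the median of all probes tested ran from -0.014 to 0.0018. These values include the repeat hybridizations, each as a unit of its own, and average the arrays of 1 rat within a batch first. They rest on 1 ADBR3 and 3 WT arrays for slide 1, 1 and 1 for slide 3, 3 and 1 for slide 4, 3 and 1 for scan day 1, and 4 and 5 for scan day 2. The 3 WT arrays of slide 1 are from 2 rats. On slide 4 the ADBR3 arrays include the repeat hybridization heart 4, and the WT array is the repeat hybridization heart 5. That array was nearest WT heart 4, the WT array of slide 3 and of scan day 1. Slides 2 and 5 held 1 group each and gave no value.

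The spread between rats was lower in the median for proteasome probes than for the array as a whole, a difference that was not tested. The SD between rats of a group had a median of 0.058 over the 38 members and 0.13 over all probes tested. The spread falls with brightness on these arrays, so probes were also read by brightness. The 32 members with a mean level of at least 0 had a median SD of 0.056, against 0.090 for all such probes. The 6 dimmer members had a median of 0.16, against 0.18 for all dimmer probes. Repeat labelings of 1 rat differed by a median of 0.031 in ADBR3 and 0.028 in WT for the members, against 0.088 and 0.083 for all probes tested. For all probes tested with a mean level of at least 0 these medians were 0.059 and 0.049. Psma2, Psmd7, Psmd9 at probe A_64_P122010 and Psma4 were the brighter members with the largest spread, at SDs of 0.19, 0.17, 0.13 and 0.12. Psmd7, a lid partner of Psmd14 named here after its values were seen, measured 1.34, 1.57, 1.50, 1.099 and 1.53 in ADBR3 rats, against 1.52, 1.79, 1.50 and 1.49 in WT rats. Its lowest rat was ADBR3 rat 6 and its highest WT rat 3, the same rats that were the extremes for Psma4.

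**Figure D4:**
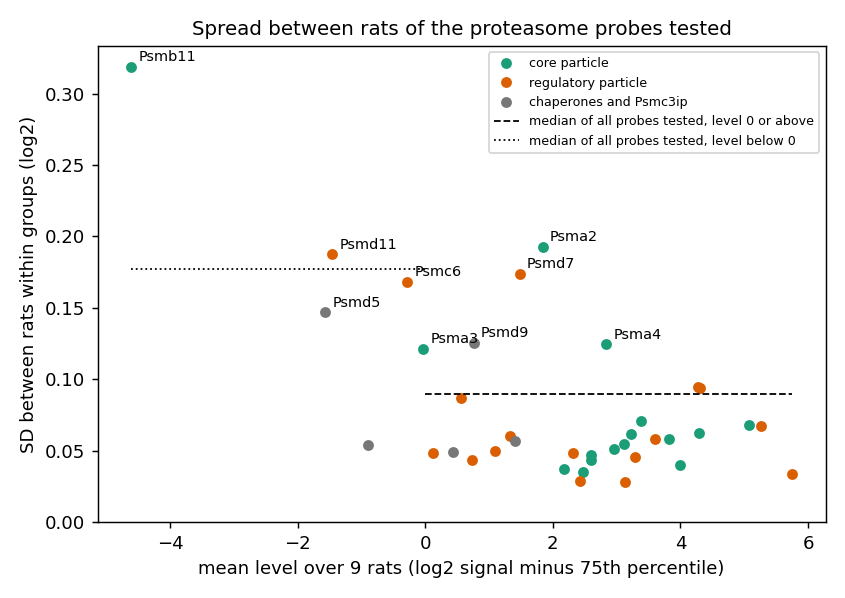
SD between rats within groups (log2, pooled over 5 ADBR3 overexpressing and 4 WT rats) against mean level (log2 signal minus the 75th percentile) of each member probe tested, with core, regulatory and other members coloured apart. Lines mark the median SD of all probes tested at a level of 0 or above (0.090) and below 0 (0.18), and named points have an SD above 0.12.

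The likeness of the subunits from rat to rat was described by correlation. Over the 9 rats, after each group mean was taken out, the median correlation between pairs of core probes was 0.28, with 76.7% of pairs above 0. It was 0.064 for the regulatory particle, with 55.1% of pairs above 0, and 0.0050 for all probes tested, with 50.4% above 0. These correlations are a description over few rats, and the probes of a pair share their array and its scaling.

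The inducible partners are described only for contrast with the catalytic subunits, and all 3 were lower in sign. Psmb9, which replaces Psmb6, measured 1.21, 1.15, 1.34, 1.13 and 1.21 in ADBR3 rats 1, 3, 5, 6 and 7, against 1.63, 1.66, 1.36 and 1.44 in WT rats 1, 3, 4 and 6. Every ADBR3 rat was below every WT rat, a difference of -0.31 ± 0.076 (SE; limma adjusted p = 0.313; exact two-sided permutation p = 0.00794, the smallest possible). Psmb8, which replaces Psmb5, measured 0.26, 0.20, -0.029, 0.16 and 0.20 in ADBR3 rats, against 0.57, 0.66, 0.48 and 0.10 in WT rats. WT rat 6 lay within the ADBR3 range, and the difference was -0.30 ± 0.11 (SE; limma adjusted p = 0.501; exact permutation p = 0.0714). Psmb10, which replaces Psmb7, differed by -0.042 (limma adjusted p = 0.877), at 2.31 to 2.60 in ADBR3 rats and 2.41 to 2.63 in WT rats.

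The change of each inducible subunit was set against that of its constitutive partner in the same rat, a comparison added after the values were seen. The difference of Psmb9 minus that of Psmb6 was -0.26 (exact two-sided permutation p = 0.0159, adjusted over the 3 pairs 0.0476). All 5 ADBR3 rats lay below all 4 WT rats in this measure, with a gap of under 0.01 between the nearest rats. For Psmb8 against Psmb5 the value was -0.27 (exact permutation p = 0.0873, adjusted 0.131), and for Psmb10 against Psmb7 it was -0.088 (exact permutation p = 0.262, adjusted 0.262). With 1 rat left out, the Psmb9 value was -0.31 to -0.21. There the exact test has little room: the smallest adjusted p that 1 pair alone can reach is 0.0857 without an ADBR3 rat and 0.0536 without a WT rat. The Psmb9 pair was at that limit without each ADBR3 rat and without WT rat 1 or 4. Losing the call in these cases says nothing about its stability. Without WT rat 3 the adjusted p of the Psmb9 pair was 0.107, above the limit of 0.0536. Without WT rat 6, where both pairs reached the smallest p, the adjusted p was 0.0268 for both the Psmb9 and the Psmb8 pair.

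Lymphocyte markers were also lower in sign. Of the marker probes, 5 were bright enough to be tested and all 5 were lower, against 53.5% of all probes tested. With an unadjusted limma p under 0.05 there were 3, namely Cd8a, Cd3d and Cd3g, with 0 passing adjustment. Of all probes tested, 6.08% were lower at that unadjusted p. The summed linear level of all 10 marker probes, relative to the 75th percentile, was 1.11 to 1.47 in ADBR3 rats and 1.44 to 1.93 in WT rats. Cd2, Cd3e, Cd5 and Cd79b were among those not bright enough. Nkg7, the brightest of the 10 and so the largest part of the sum, differed by -0.11 (limma adjusted p = 0.810). Of the other marker lists, fibroblast had 6 of 6 tested probes higher, blood cell 5 of 5 and atrial 3 of 4. Adipocyte had 2 of 4 higher, cardiomyocyte 4 of 11, macrophage 2 of 6 and endothelial 1 of 5. Of these only Mybpc3, a cardiomyocyte marker, had an unadjusted limma p under 0.05, with the groups fully apart at 0.18 higher. The part of lymphocyte markers in the difference of Psmb8 and Psmb9 was not tested.

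**Figure D5:**
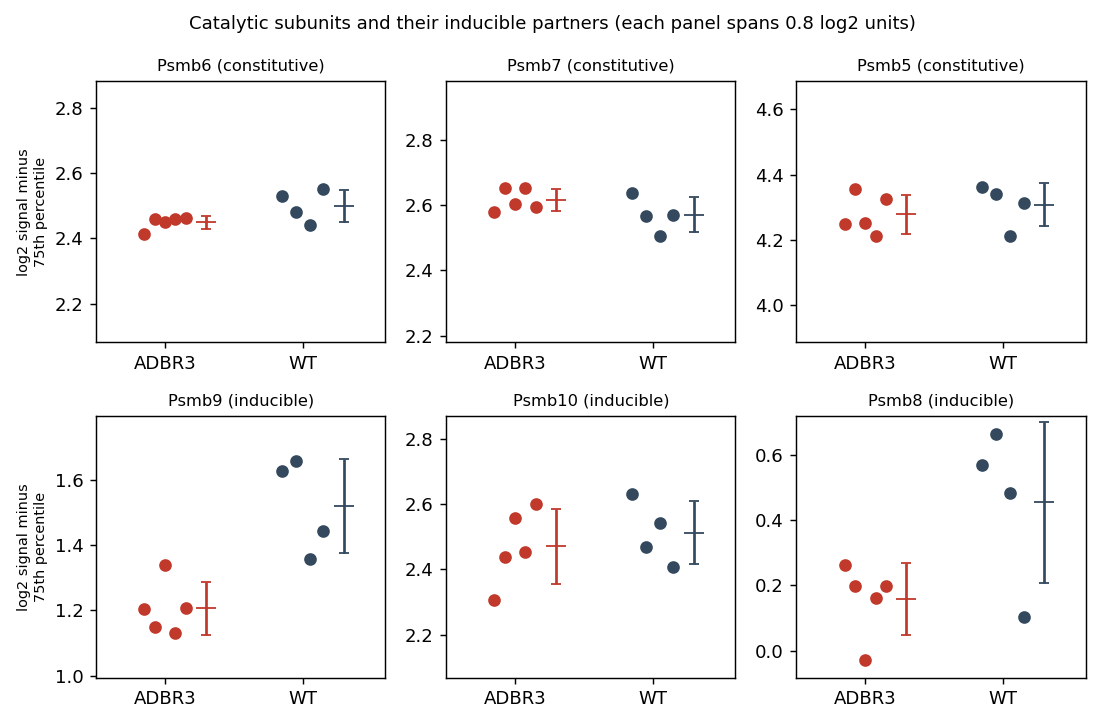
Level (log2 signal minus the 75th percentile) of the catalytic subunits Psmb6, Psmb7 and Psmb5 (top) and of the inducible partners Psmb9, Psmb10 and Psmb8 (bottom), with 1 point per rat, ADBR3 overexpressing left and WT right, and bars for the mean ± SD (n = 5 and 4). Each panel spans 0.8 log2 units, and the groups are fully apart for Psmb9, at 1.13 to 1.34 in ADBR3 rats and 1.36 to 1.66 in WT rats.

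Other genes of the ubiquitin and proteasome pathway gave 63 probes of 52 genes, the inducible subunits included. Of the 60 tested, 37 were higher and 23 lower, 0 passed adjustment, and at an unadjusted limma p under 0.05 there were 1 higher and 2 lower, against 3.12% and 6.08% of all probes tested. The 2 lower probes were those of Psmb8 and Psmb9. The higher one read Ubqln4, a shuttle protein that carries ubiquitin-tagged proteins to the proteasome, at a difference of 0.14 (limma adjusted p = 0.525). The other Ubqln4 probe differed by 0.13 (limma adjusted p = 0.562). Core assembly chaperones had 5 of 6 probes higher with a median of 0.033, and muscle ubiquitin ligases had 10 of 13 higher with a median of 0.067. Activators and the inhibitor had 3 of 7 higher, ubiquitin genes 3 of 5, other regulatory subunits and bound enzymes 6 of 8, and activating and shuttle factors 8 of 12. Transcription factors of proteasome genes and their processing had 2 of 6 higher, among which Nfe2l1 differed by 0.056, while Nfe2l2 differed by -0.058 (limma adjusted p = 0.824 and 0.713).

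The promoters of proteasome genes were read for TGACNNNGC, the core of the antioxidant response element that those factors bind, on both strands and from 250 bases before to 50 bases after the start. All 42 probes matched a gene of RefSeq (assembly GRCr8), 38 of them by accession, and together they name 37 genes, since RefSeq now lists Psma3l as Psma3. Of these genes, 32 had a promoter in the RefSeq table and 7 of them, or 21.9%, held the motif: Psma3, Psmb2, Psmb5, Psmb6, Psmd1, Psmd3 and Psmd9. The motif was in 12.1% of all 33469 promoters, a share counted by promoter, whereas that of the members is counted by gene. A match is a run of letters and no measured binding site. RefSeq also names copies or pseudogenes of 15 of the 37 genes, up to 10 for Psmb3, and a probe's signal from a gene and from a near-identical transcribed copy cannot be told apart.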

How the data were processed

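RNA of 13 left ventricle samples was labelled with Cy3 and hybridized to Agilent arrays of 60-base probes. The authors deposited spot intensities made with Agilent Feature Extraction 10.7.1.1 per the file headers; the processed signal is background-subtracted. The deposited series table holds natural log (ln) values, a base taken here from their match to the scanner values. No label states how arrays were scaled to each other there, and its column medians were 5.695 to 5.73. It served as an alternative only. Members, gene lists and tests were chosen with earlier results of these data known.

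Log2 processed signal minus the array's 75th percentile was computed, spots of a probe were averaged, and the labelings of 1 rat were averaged. A probe was tested where 4 or more of the 9 rats read it well above background (at least 0.5 of spots, on all arrays of the rat). The comparison used the limma package (3.58.1, R 4.3.3; lmFit, eBayes), adjusted by Benjamini-Hochberg at 0.05. Intervals are 95%. The procedure was tested on simulated data. Single values had exact two-sided permutation tests over the 126 splits of rats. The number of arrays limits the precision.

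Genes named singly were the 4 with the smallest p in each direction, catalytic subunits, Psmd14, Psmd4, chaperones, and members that are dim or no constitutive subunit. From pathway lists, up to 3 genes a list with an unadjusted p under 0.05 were named, with the inducible subunits. Other names mark the ends of a range or were singled out after their values were seen. Slides and scan days come from the file headers. Numbers shared by ADBR3 and WT rats were not treated as a pairing. Deviations of same-numbered rats correlated at 0.12, 0.035 and 0.12. These values cannot exclude a pairing, since no correlation of differently numbered rats was set beside them. Probe sequences come from the deposited files. Tables were read with data.table (1.17.8) and pandas 2.3.3 in Python 3.11.15 and drawn with matplotlib 3.10.9.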

Additional observations from a re-analysis of the deposited data

Results flagged for a closer look

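In 4 of the member probes screened, 1 rat lay far from the others of its group. Each was found with Dixon’s test at the 95% level. Psmc6 was at 0.202 in WT rat 4, with the other WT rats at -0.317 to -0.276. Psma4 was at 2.55 in ADBR3 rat 6, with the others at 2.78 to 2.86. Psma2 was at 1.56 in ADBR3 rat 1, with the others at 1.94 to 2.06. Psmb6 was at 2.41 in ADBR3 rat 1, with the others at 2.45 to 2.46. These were 4 of 48 groups screened, and chance alone marks about 1 in 20 groups. The screen did not cover every member probe. Psmd7 is not among the 4, though its WT rat 3 was at 1.79 with the other WT rats at 1.49 to 1.52. The Psmb11 probe A_64_P022327, which was not tested, read -5.02 on ADBR3 heart 7, where it was well above background, against -7.60 to -6.09 on the WT arrays.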

How the results depend on the processing

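No member probe passed adjustment under any of the 24 alternatives run with limma (0 in each). The 18 probes named kept their sign in 393 of 430 values, 0 passed the threshold, and the smallest adjusted p was 0.393. The replicate block, which pairs rats by their number alone, changed no call of a member. Calls over all probes numbered 1 in the reported comparison, 2 with normexp and quantile normalization, 0 with median scaling, 6 with a trended robust variance, 9 with slide as a block, 0 with scan day as a block, and 0 with and 0 without a replicate block on rats 1, 3 and 6. With slide as a block, differences rest on slides 1 and 3 alone, with ADBR3 rats 1 and 7 and WT rats 1, 4 and 6. Leaving out 1 rat gave 0 to 14 calls over all probes (14 without ADBR3 rat 3). Member probes at an unadjusted p under 0.05 numbered 1 with the strict filter and 1 with the trended variance (Psmd11 in both) and 1 with the replicate block (Psmd7, -0.27). Leaving out 1 rat gave 0 to 3: Psmd11, Psmd9 and Psma2 without ADBR3 rat 1, and Psmd11 without ADBR3 rat 6 or without WT rat 4.

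The median member difference was 0.0086 with normexp at the 75th percentile and 0.046 with median scaling, a setting that put the median of all probes at 0.051. The core median was 0.037 with median scaling and -0.060 on rats 1, 3 and 6 both with and without the replicate block. The regulatory median was 0.017 with normexp at the 75th percentile, 0.047 with median scaling and 0.019 with slide as a block. The mean difference was 0.041 for the core and 0.037 for the regulatory particle with median scaling, and -0.060 for the core on rats 1, 3 and 6 (both fits). Leaving out 1 rat gave medians of -0.024 to -0.0042 for all members, -0.035 to -0.0050 for the core and -0.022 to -0.0057 for the regulatory particle, and means of -0.035 to -0.010 and -0.032 to -0.015. The cause of these shifts was not tested.

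Signs turned for probes near 0. With median scaling Psmb5 was 0.031, Psmb6 0.0090, Psmd14 0.041, Psmd4 0.055 and Psmc3ip 0.045. With normexp at the 75th percentile Psmd14 was 0.022 and Psmd4 0.017, and with normexp and quantile normalization Psmd14 was 0.021, Psmc3ip 0.0058 and Psmd10 -2.53e-05. With quantile normalization alone Psmd10 was -0.0030. With the authors' values Psmd14 was 0.010 and Psmd9 (A_64_P117920) -0.0087. With slide as a block Psmd14 was 0.031, Psmd4 0.019, Psmd9 (A_64_P117920) -0.034, Psmd10 -0.014 and Psmb11 0.20. With repeat hybridizations averaged in, Psmd5 was -0.0092 and Psmd10 -0.014, and with heart 1 alone Psmc3ip was 7.79e-05. On rats 1, 3 and 6, with and without the replicate block, Psmd5 was -0.060 and Psmd10 -0.018. Leaving out 1 rat gave Psmd4 -0.018 to 0.0036, Psmd5 -0.079 to 0.058, Psmd10 -0.024 to 0.020, Psmc3ip -0.037 to 0.0023 and Psmb11 -0.18 to 0.063. The Psmb9 minus Psmb6 value was -0.25 with either normexp setting (adjusted p = 0.0714) and -0.34 on rats 1, 3 and 6 (0.15, where 3 against 3 rats cannot give an exact permutation p below 0.1). Differences of Psma8 and of one Psmb11 probe are limited by signals below background.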
